A study of Mus musculus with 10 samples.

Results

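The enzymes that break down phenylalanine and tyrosine were followed in single hepatocytes of the mouse liver, by position in the lobule and by time of day. The 7 genes described were taken by name: Tat, Hpd, Hgd, Gstz1, Fah, Pcbd1 and Qdpr, of 14812 gene entries in all. Each was found, under its lower-case symbol (tat, hpd, hgd, gstz1, fah, pcbd1 and qdpr), and each passed the minimum of 3 CPM. CPM is the number of UMIs (distinct tagged molecules) of a gene in 1000000 UMIs of the library or zone. A CPM is a share of the RNA captured, so it does not show a change in the total RNA of a cell. The cells came from C57BL/6 male mice of 3 months, fed regular chow without restriction, anaesthetised with ketamine and xylazine, and hepatocytes were isolated by collagenase perfusion and a Percoll gradient. No mouse carried a labelled mutation or received another agent, and the groups are defined by time: 3 libraries (A, B and C) at zeitgeber time 0 (ZT0), 2 (A and B) at ZT6, 3 at ZT12 and 2 at ZT18. Zeitgeber time counts the hours of the light-dark cycle, and lights go on at ZT0 by convention. The labels do not give how many mice stand behind a library, so p-values measure the spread between these libraries, which may in part be technical.

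The liver is the main site of phenylalanine and tyrosine breakdown, and the pathway runs in hepatocytes. Pcbd1 and Qdpr recycle tetrahydrobiopterin (BH4), a cofactor of aromatic amino acid breakdown, after it has been oxidised. Tat takes the amino group off tyrosine, Hpd turns the product into homogentisate, Hgd opens its ring, Gstz1 isomerises the opened product, and Fah splits it into fumarate and acetoacetate. Loss of single enzymes of this chain causes alkaptonuria (HGD) and the tyrosinaemias (FAH, TAT and HPD) in humans. Tat is a classic target of glucocorticoids and glucagon in the liver. Pcbd1 has a separate role as a dimerisation cofactor of the transcription factor HNF1.

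The genes lie apart from each other in the genome (GRCm38, GENCODE M21): Pcbd1 at chr10:61089331-61094324 on the plus strand, Qdpr at chr5:45434021-45450236 on the minus strand and Tat at chr8:109990437-109999803 on the plus strand. Hpd lies at chr5:123171807-123182727 on the minus strand, Hgd at chr16:37580153-37632020 on the plus strand, Gstz1 at chr12:87147165-87164723 on the plus strand and Fah at chr7:84585159-84606722 on the minus strand. All 7 are annotated as protein coding. Hpd overlaps Psmd9 on the other strand, Gstz1 overlaps Pomt2 on the other strand, and Qdpr overlaps the antisense gene Gm42413. These partners held 1590, 545 and 21 UMIs in all, against 35092 for Hpd, 17871 for Gstz1 and 23144 for Qdpr. Whether the counting used the strand is not given in the sources used here.

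The sequences before the start sites of the 3 enzymes that differed between the zones of the lobule (Tat, Hpd and Pcbd1, described below) are shown, since these 3 carry the main result. Each is the 250 bases upstream of the RefSeq start in GRCm38.p6, 5′ to 3′ on the strand of the gene. The windows are chr8:109990186-109990435 (plus strand) for Tat, chr5:123182724-123182973 (minus strand) for Hpd and chr10:61089081-61089330 (plus strand) for Pcbd1. All 7 genes had a promoter in the RefSeq table. Capitals mark matches on either strand to 1 of 7 short motifs. Of these, GTTAAT is only a part of the HNF1 site, and AGAACA only a part of the glucocorticoid receptor site. The others are the CCAAT box CCAAT, the TATA box TATAAA, the TCF site CTTTGAT, the E-box CACGTG and the GC box GGGCGG.
Tat: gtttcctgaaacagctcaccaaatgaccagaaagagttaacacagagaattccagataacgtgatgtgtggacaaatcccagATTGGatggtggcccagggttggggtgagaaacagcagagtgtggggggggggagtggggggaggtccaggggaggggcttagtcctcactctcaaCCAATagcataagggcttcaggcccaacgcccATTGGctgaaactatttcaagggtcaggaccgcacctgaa
Hpd: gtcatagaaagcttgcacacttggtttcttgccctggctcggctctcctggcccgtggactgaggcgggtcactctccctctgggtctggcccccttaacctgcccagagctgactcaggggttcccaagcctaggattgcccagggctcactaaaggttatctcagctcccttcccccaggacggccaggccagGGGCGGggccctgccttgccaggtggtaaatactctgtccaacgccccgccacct
Pcbd1: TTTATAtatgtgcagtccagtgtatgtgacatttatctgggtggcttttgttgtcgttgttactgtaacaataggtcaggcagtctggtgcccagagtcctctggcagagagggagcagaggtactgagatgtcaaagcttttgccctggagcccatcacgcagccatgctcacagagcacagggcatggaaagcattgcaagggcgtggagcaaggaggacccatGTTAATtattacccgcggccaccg
The Tat window held 3 CCAAT boxes, which start 168, 72 and 40 bases before the start site. The Hpd window held 1 GC box, 55 bases before the start. The Pcbd1 window held GTTAAT 24 bases before the start and TATAAA on the other strand at its far end, 250 bases before it. Among 32851 promoter windows of the same length, 33.8% held a CCAAT box, 32.7% a GC box, 12.4% TATAAA and 6.43% GTTAAT. The other motifs, at 16.1% (AGAACA), 3.21% (CTTTGAT) and 6.02% (CACGTG) of all windows, were not in these letters. No motif was held by all 3 windows, and a match is a description of the letters, not a site in use.

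The libraries held 18378 cells in all, 710 to 2860 per library, with 1454623 to 7144803 UMIs per library. The median cell held 1588 to 2662 UMIs. Hepatocyte markers (7 genes, among them Alb and Ttr) summed to 42258 to 82348 CPM. The summed markers of other cells were far lower: 3.44 to 16.7 CPM for endothelial cells (Clec4g and Ptprb at 0), 0 to 6.11 for macrophages (Clec4f, Csf1r and C1qa at 0), and 0 to 0.609 for lymphocytes (5 of 6 genes at 0, Ptprc above it). They were 0 to 7.70 for neutrophils, 2.82 to 10.5 for stellate cells, 5.79 to 117.8 for cholangiocytes and 72.2 to 361 for erythroid cells. ZT12A stood apart: it had the fewest cells and UMIs, the highest share of mitochondrially encoded UMIs (24.7% in the median cell, against at most 21.6% in the other libraries) and the lowest hepatocyte marker sum. The number in the name of the 10x sample index (its column), given in the labels, is shared by ZT0 and ZT12 libraries of the same letter (3 for A, 7 for B and 5 for C). It is 7 for both ZT6 libraries and 4 for both ZT18 libraries and no other, so at ZT18 time and index column cannot be told apart. No cell profile occurred in 2 libraries. The files carry cell numbers and not barcode sequences.

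Tat had the highest mean level of the 7 enzymes, with 1435 ± 680 CPM (SD, n = 10 libraries). Hpd had 825 ± 236 CPM. Qdpr followed with 535 ± 81.5 CPM, Gstz1 with 415 ± 75.1 CPM and Pcbd1 with 413 ± 53.6 CPM. Fah with 250.1 ± 56.3 CPM and Hgd with 232 ± 49.7 CPM were the lowest. These are counts of molecules read from their 3′ ends, which do not scale with transcript length. The spread over libraries covers several of the gaps, among them those between Tat and Hpd, between Gstz1 and Pcbd1 and between Fah and Hgd. Tat was above Hpd in 8 of 10 libraries. Hpd was the higher in ZT0B (818 against 704 CPM) and ZT6B (989 against 652 CPM). Tat also varied most between libraries, with a coefficient of variation of 47.4%, against 13.0% to 28.7% for the other 6.

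The first comparison asked where along the lobule each enzyme is expressed. Blood enters the liver lobule at the portal vein and leaves at the central vein, and hepatocytes differ in their metabolism along this path. Within each library, hepatocytes were ranked on a score of 8 periportal minus 8 pericentral landmark genes, none of them among the enzymes described, and split into 3 equal zones. Of the 7 enzymes, 3 differed between the periportal and the pericentral zone: Tat rose towards the portal vein, and Hpd and Pcbd1 rose towards the central vein. In the same test 24.6% of 8907 genes were called (edgeR's quasi-likelihood test, Benjamini-Hochberg adjusted p under 0.05, library as a block). The 2 enzymes that act one after the other on tyrosine, Tat and Hpd, thus had opposite gradients.

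Tat had 1145 ± 566 CPM in the pericentral zone and 1662 ± 752 CPM in the periportal zone (SD, n = 10). The 2 zones overlap between libraries because Tat differs so much from library to library, but within a library the order never changed. The log2 difference was at least 0.44 (ZT12A), 0.54 at the median and at most 0.73 (ZT6B), so the periportal zone was higher in 10 of 10 libraries. The fitted difference was 0.66 (SE 0.06), a 1.58-fold higher level in the periportal zone (edgeR, adjusted p = 2.56e-11). Hpd had 1033 ± 279 CPM in the pericentral zone and 657 ± 179 CPM in the periportal zone. The log2 difference ran from -0.98 (ZT12B) through a median of -0.65 to -0.39 (ZT0A), so all 10 libraries had more Hpd in the pericentral zone. The fitted difference was -0.55 (SE 0.06), a 1.47-fold higher pericentral level (edgeR, adjusted p = 3.62e-09).

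Pcbd1, the enzyme that dehydrates the spent cofactor, had the smallest of the 3 differences. It had 448 ± 62.3 CPM in the pericentral and 365 ± 55.7 CPM in the periportal zone, and it was higher in the pericentral zone in all 10 libraries, by a log2 difference of -0.43 (ZT0C) to -0.08 (ZT6B). The fitted difference was -0.20 (SE 0.06; edgeR, adjusted p = 0.0146). Tat, Hpd and Pcbd1 are also the 3 of 7 enzymes whose zones differed in 1 direction in every library, which 12.1% of 8907 genes did. These values per library are scaled by the total UMIs of each zone, unlike the main test. On that scaling the fitted difference of Pcbd1 was -0.30, and Gstz1 and Hgd were pericentral in 9 and 8 of 10 libraries. Whether ZT6B keeps its side for Pcbd1 on the scaling of the main test was not tested. Qdpr, the partner of Pcbd1 in cofactor recycling, had 523 ± 78.1 CPM in the pericentral and 540.4 ± 94.5 CPM in the periportal zone, with a fitted difference of 0.15 (95% CI 0.03 to 0.27) that missed the threshold (edgeR, adjusted p = 0.0672). It passed with a minimum of 20 CPM (adjusted p = 0.0266) and without the top 5% of cells by UMIs (adjusted p = 0.0168), but had 0.05 when libraries were scaled by their total (adjusted p = 0.588). The values did not differ beyond the threshold for Hgd (fitted -0.05, 95% CI -0.19 to 0.09), Gstz1 (-0.07, -0.19 to 0.05) and Fah (0.06, -0.07 to 0.19).

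The scaling mattered for small differences between zones, and the cause was not tested. With libraries scaled by their total alone, the median of all genes moved from -0.01 to -0.11 on the log2 scale, and the share of calls that were periportal moved from 48.3% of 2194 to 27.8% of 2525. On that scaling 4 enzymes were called, since Gstz1 (-0.17, adjusted p = 0.0268) joined the pericentral side, and the sign of Fah turned to -0.04. Tat, Hpd and Pcbd1 kept their direction and their call under each of 22 alternatives, the omission of each library in turn included, and the highest adjusted p of Pcbd1 was 0.0452 (without ZT0A). The hepatocyte marker sum was 27491 to 64346 CPM in the pericentral zones and 54574 to 95172 CPM in the periportal zones, and that of cholangiocyte markers 1.57 to 22.8 CPM against 13.0 to 218 CPM. The part of these in the zone differences was not tested.

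**Figure D1:**
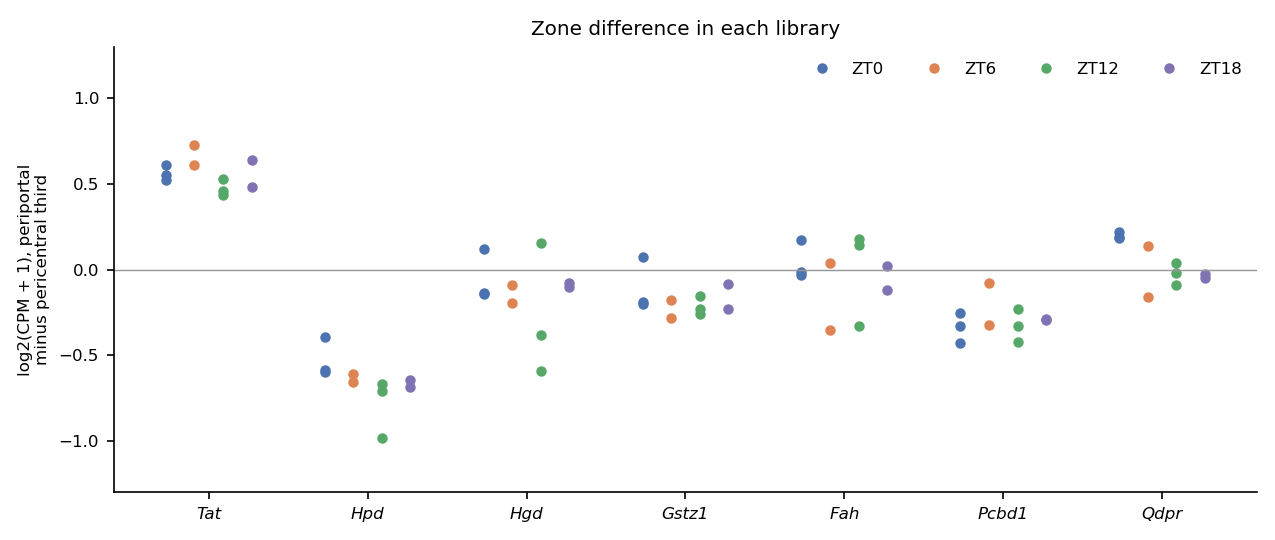
Difference between the periportal and the pericentral zone in log2(CPM + 1), for each of the 7 enzymes (horizontal axis) and each library (points, coloured by time). All 10 points of Tat lie above 0, from 0.44 to 0.73, and all 10 of Hpd and of Pcbd1 lie below 0. The lowest point of Hpd, -0.98, is library B of ZT12.

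In the middle zone, no enzyme differed from the mean of the outer zones (0 of 7 by edgeR, while 0.641% of 8894 genes were called). At an unadjusted p under 0.05 there were 2 of 7, against 8.15% of 8894 genes. These were Tat with 0.11 (SE 0.04; edgeR, adjusted p = 0.332) and Pcbd1 with 0.10 (SE 0.04, adjusted p = 0.516). DESeq2 called 1, Tat, with 0.11 (adjusted p = 0.0251).

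The shape over the lobule was drawn with 8 layers of equal cell number, layer 1 at the central and layer 8 at the portal end. These values are scaled by the total UMIs of each layer, unlike the main test. Between zones, scaling by the total moved the median of all genes from -0.01 to -0.11 (log2), and its part in the layer slopes was not tested. Tat rose from 1004 CPM in layer 1 to 1685 CPM in layer 8 (means of 10 libraries). Relative to the mean of the 8 layers in each library it was 0.70 ± 0.03 in layer 1, 1.03 ± 0.07 in layer 4 and 1.21 ± 0.13 in layer 8 (SD, n = 10). Layer 1 was the lowest in 10 of 10 libraries. Hpd had 1151 CPM in layer 1 and 642 CPM in layer 8, or 1.40 ± 0.14 and 0.79 ± 0.07 relative to the mean. Layer 1 was its highest layer in 9 of 10 libraries and layer 2 in the other. Between layers 5 and 8 the relative level of Hpd moved only from 0.89 to 0.79, so most of its gradient lay in the central part.

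Pcbd1 had a different shape: it stayed near 1.07 to 1.10 over layers 1 to 3 and came down to 0.85 ± 0.06 in layer 8. The mean of Qdpr was lowest in layer 1, at 0.95 ± 0.08, with a top of 1.03 in layer 6. Layer 1 was its lowest layer in 4 of 10 libraries and layer 8 in 3, and layer 8 was above layer 1 in 5. Hgd, Gstz1 and Fah ran within 0.94 to 1.06, 0.90 to 1.08 and 0.95 to 1.05 of their means. Their SD between libraries was 0.04 to 0.17 in a layer.

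**Figure D2:**
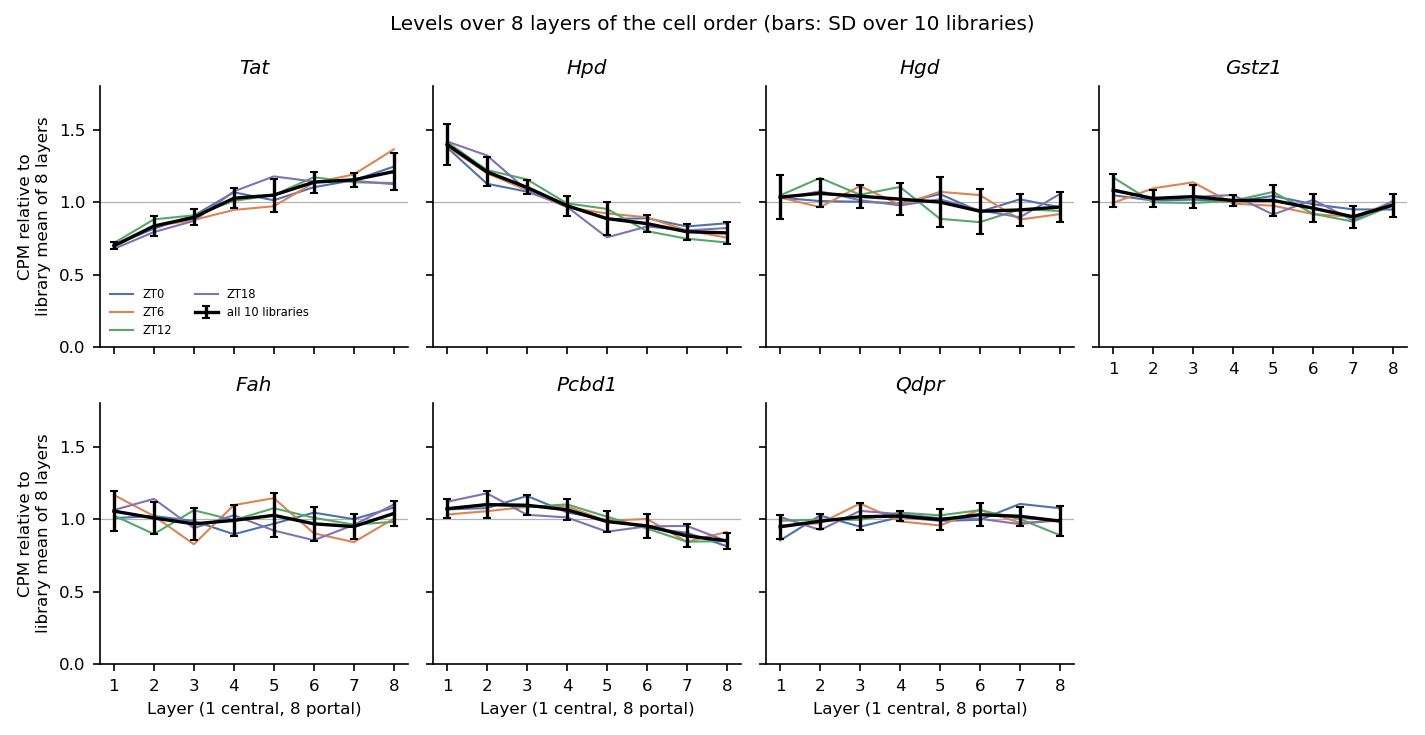
Level of each enzyme over 8 layers from the central (1) to the portal end (8), as CPM relative to the mean of the 8 layers in each library. CPM is scaled by the total UMIs of each layer. Black lines are means over 10 libraries with the SD, and coloured lines are means per time; over all libraries Tat goes from 0.70 in layer 1 to 1.21 in layer 8 and Hpd from 1.40 to 0.79. Per time, Tat in layer 8 is between 1.12 (ZT18) and 1.36 (ZT6), and its top lies in layer 8 at ZT0 and ZT6, in layer 6 at ZT12 and in layer 5 at ZT18.

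The ratio of Tat to Hpd UMIs shows both gradients in 1 number, and needs no scaling, as both counts come from the same cells. In the pericentral zone the ratio was 0.40 (ZT6B) to 2.65 (ZT12A), with a median of 0.94, and Tat was the more abundant in 5 of 10 libraries. In the middle zone it was 0.65 to 4.14, with a median of 1.66. In the periportal zone it was 1.05 to 5.86, with a median of 2.34, and Tat was the more abundant in 10 of 10. Within a library the ratio was 2.01 to 2.72 times higher in the periportal than in the pericentral zone, with a median of 2.25. This increase was alike across libraries although the ratio itself differed: over the whole library it was lowest in ZT6B, at 0.66, and highest in ZT12A, at 3.90. From layer 1 to layer 8 the median ratio went from 0.72 to 2.50.

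**Figure D3:**
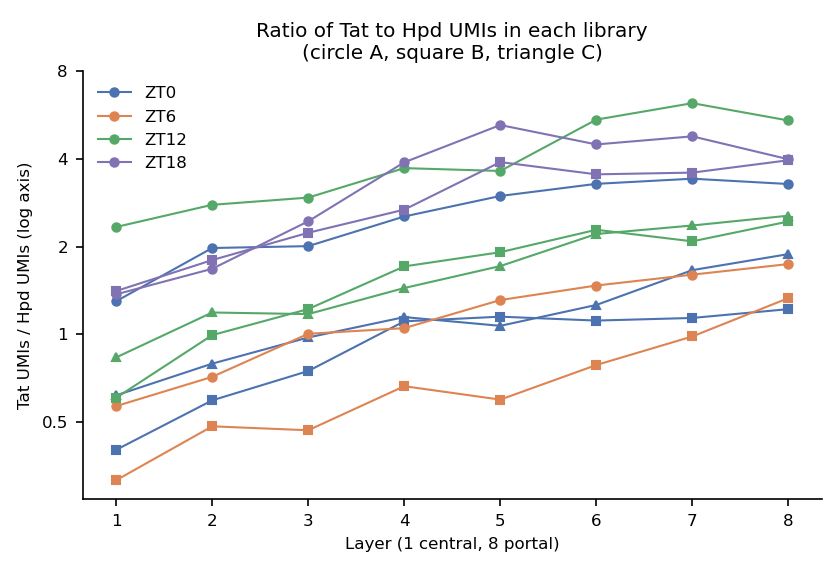
Ratio of Tat to Hpd UMIs (vertical log axis) over 8 layers from the central (1) to the portal end (8), 1 line per library, coloured by time. Each line is higher at layer 8 (1.22 to 5.42) than at layer 1 (0.32 to 2.34).

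The second comparison asked whether the enzymes follow the time of day. None of the 7 had a 24-h rhythm that passed the test (0 of 7 by edgeR, against 5.14% of 8908 genes), and none passed the test of any difference among the 4 times (0 of 7, against 6.58%). At an unadjusted p under 0.05 there was 1 of 7 in each test, Tat, against 20.4% (rhythm) and 22.5% (any time) of 8908 genes. DESeq2 called 0 of the 7 in each. Tat had its lowest mean at ZT6 and its highest at ZT12. Hgd and Qdpr overlapped between every pair of times.

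Tat had 1564, 704 and 1222 CPM at ZT0, 949 and 652 CPM at ZT6, 2913 (A), 1068 (B) and 1981 (C) CPM at ZT12, and 1678 and 1619 CPM at ZT18. Both ZT6 libraries lay below all ZT12 and ZT18 libraries, while ZT0 overlapped with ZT6 and with ZT12. The ZT18 and ZT6 libraries did not overlap in 62.0% of 8908 genes, and the share for ZT12 and ZT6 was not counted. The fitted wave had an amplitude (mean to peak) of 0.64 on the log2 scale, or 2.43-fold from trough to peak (edgeR, unadjusted p = 0.0495, adjusted p = 0.244).

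Hpd, which acts next, had 626, 818 and 1109 CPM at ZT0, 859 and 989 CPM at ZT6, 747, 728 and 1262 CPM at ZT12, and 519 and 591 CPM at ZT18. Both ZT18 libraries were below every other library. Fah had 186 ± 23.9 CPM at ZT18 (SD, n = 2) and 253 ± 25.2 CPM at ZT0 (n = 3), and Gstz1 had 312 ± 12.3 and 411 ± 76.8 CPM at these times. The ZT18 libraries of Gstz1 were below every other library too, and those of Fah below every library of ZT0 and ZT6. Pcbd1 had 423, 492 and 429 CPM at ZT0, 449 and 432 CPM at ZT6, 355, 366 and 331 CPM at ZT12, and 478 and 379 CPM at ZT18. All 3 ZT12 libraries of Pcbd1 lay below those of the other times. Such gaps are common: of 8908 genes, 62.0% did not overlap between ZT18 and ZT6, and 18.1% between ZT12 and ZT0. The share of genes with 1 time below all others was not counted. For Hpd, Fah, Gstz1, Pcbd1, Qdpr and Hgd the fitted amplitudes were 0.33, 0.28, 0.20, 0.25, 0.21 and 0.06, with adjusted p from 0.314 to 0.962 (edgeR).

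**Figure D4:**
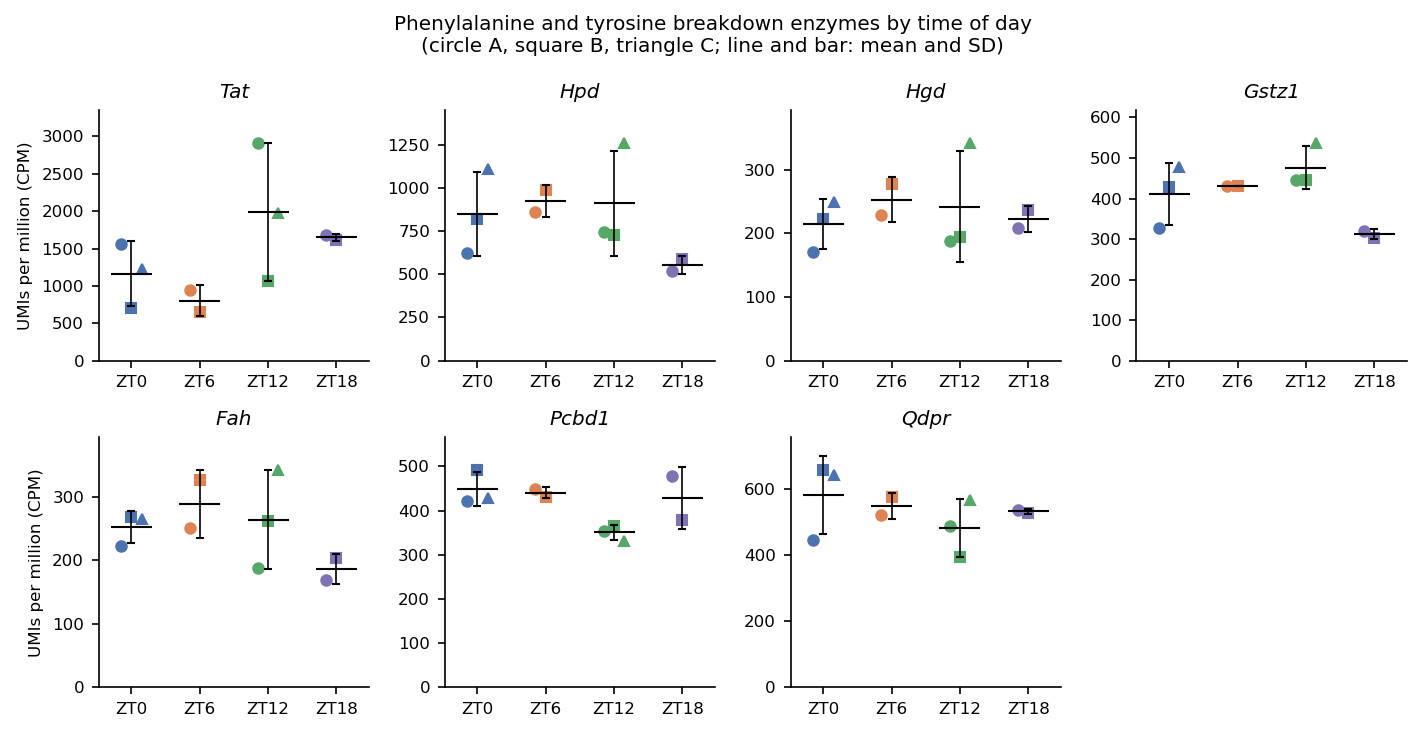
Level of each enzyme in CPM (vertical axis, from 0) in every library at the 4 times; circles are libraries A, squares B and triangles C, and black lines and bars are the mean and SD (n = 3 at ZT0 and ZT12, n = 2 at ZT6 and ZT18). The highest point of Tat (2913) is library A of ZT12.

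Between ZT12 and ZT0, 0 of 7 enzymes passed edgeR's test without a pairing of libraries, in which 3.44% of 8908 genes were called. At an unadjusted p under 0.05 there was 1 of 7, Pcbd1, against 15.5% of 8908 genes, and DESeq2 called 0 of the 7. Pcbd1 had a difference of -0.49 (SE 0.20, 95% CI -0.92 to -0.07; edgeR, adjusted p = 0.238). Tat had 0.61 (95% CI -0.18 to 1.40; adjusted p = 0.452) and Qdpr -0.41 (95% CI -0.86 to 0.03; adjusted p = 0.364). Hpd, Hgd, Gstz1 and Fah lay between -0.09 and 0.07, and Hpd and Fah became 0.10 and 0.07 when libraries were scaled by their total. Pcbd1 was also the 1 of 7 whose libraries did not overlap between ZT12 and ZT0, as in 18.1% of all genes.

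ZT0 and ZT12 libraries of the same letter share an index column and deviated together, so they were also compared as pairs. Within the pairs A, B and C, in CPM scaled by the library total, Tat was higher at ZT12 by 0.90, 0.60 and 0.70 (log2). Gstz1 was also higher in each pair, by 0.45, 0.06 and 0.17. On that scaling the median fitted difference of all genes was 0.13. Pcbd1 was lower in all 3 pairs, with -0.25, -0.43 and -0.37. Hpd, Hgd, Fah and Qdpr changed direction between pairs, and the share of all genes that kept 1 direction was not counted. With the letter as a replicate block, 504 genes and 0 of the enzymes were called (edgeR, adjusted p = 0.127 for Pcbd1 and 0.227 for Tat). With the index column as the block, 767 genes and 2 enzymes were called: Tat (0.59, adjusted p = 0.0362) and Pcbd1 (-0.49, adjusted p = 0.0455). With a replicate block in the ZT0 and ZT12 libraries alone, an alternative chosen after seeing the data, 421 genes and 0 enzymes were called (adjusted p = 0.118 for Tat and 0.146 for Pcbd1). Without the A pair, this fit called 627 genes and 1 enzyme, Tat (0.54, adjusted p = 0.0381). Without the B pair it called 576 genes and 0 enzymes, and without the C pair 145 and 0.

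The unpaired difference of Tat depended on ZT12A: without it, the difference between ZT12 and ZT0 was 0.18 (edgeR, adjusted p = 0.859). That fit keeps ZT0A, the highest ZT0 library of Tat, and without the whole A pair the paired difference was 0.54, as given above. The part of the mitochondrial share and the low cell number of ZT12A in these values was not tested. Scaling by the library total alone moved the median of all genes from 0.00 to 0.13 and the share of higher calls from 50.7% of 306 to 66.7% of 303. On that scaling Tat had 0.77 (adjusted p = 0.296) and Pcbd1 -0.35 (adjusted p = 0.4).

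Between ZT18 and ZT6, 0 of 7 enzymes passed (edgeR), against 3.79% of 8908 genes, and DESeq2 called 0 of the 7. At an unadjusted p under 0.05 there were 2 of 7, against 19.6% of 8908 genes. Tat was higher at ZT18 by 1.13 (SE 0.45, 95% CI 0.15 to 2.10; adjusted p = 0.189), and Hpd had -0.66 (SE 0.31, 95% CI -1.32 to -0.0050; adjusted p = 0.251). Fah had -0.56 (adjusted p = 0.277), Gstz1 -0.40 (adjusted p = 0.371), Hgd -0.11, and Pcbd1 and Qdpr 0.03 each, which became -0.04 each when libraries were scaled by their total. In 4 of 7 enzymes (Tat, Hpd, Gstz1 and Fah) the ZT18 and ZT6 libraries did not overlap, a share near the 62.0% of all genes, as is easily reached with 2 libraries a time. Erythroid markers summed to 99.0 to 361 CPM at ZT18 and 72.2 to 108 CPM at the other times, and their part in the ZT18 values was not tested.

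**Figure D5:**
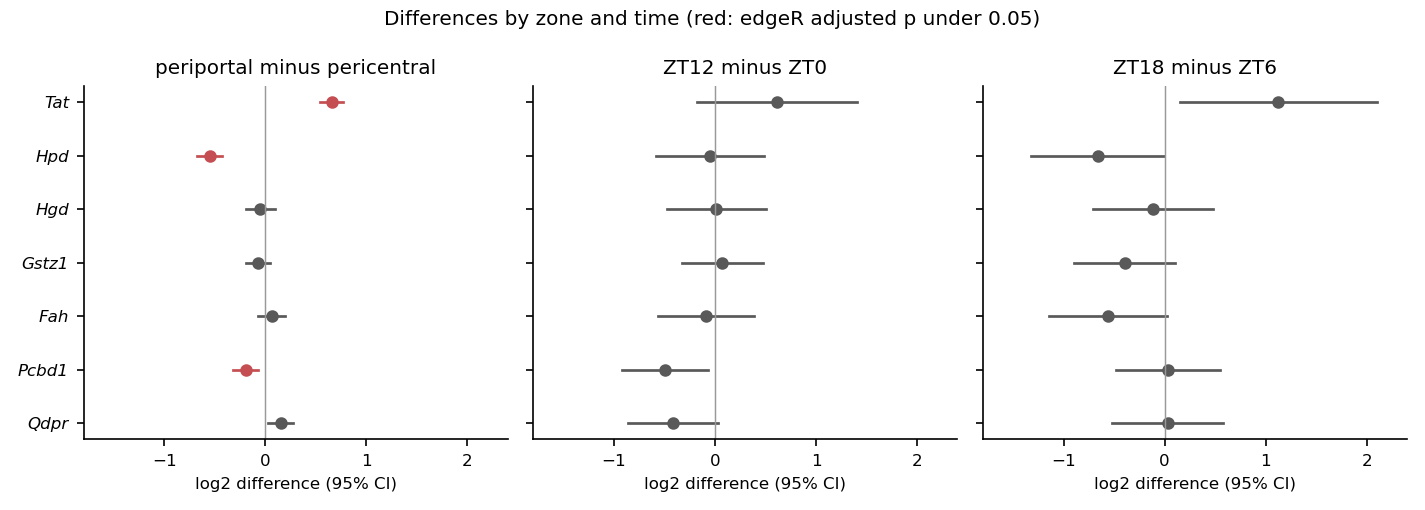
Log2 differences of the 7 enzymes (points) with 95% confidence intervals (lines) between zones, between ZT12 and ZT0 and between ZT18 and ZT6, from edgeR. Only Tat, Hpd and Pcbd1 in the zone comparison are red, for an adjusted p under 0.05; the intervals over time are several times wider than those over zones.

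The third comparison asked whether the zone difference itself follows the time of day. No enzyme passed this test (0 of 7 by edgeR and by DESeq2), against 0.0337% of 8907 genes (3 genes) by edgeR. At an unadjusted p under 0.05 there were 0 of 7, against 6.12% of 8907 genes. The mean zone difference of Tat was 0.56, 0.67, 0.47 and 0.56 at ZT0, ZT6, ZT12 and ZT18, in log2(CPM + 1), periportal minus pericentral. That of Hpd was -0.53, -0.63, -0.79 and -0.67. Both kept their sign in every library of every time. Pcbd1 had -0.34, -0.20, -0.33 and -0.29, and Qdpr 0.20, -0.01, -0.02 and -0.04.

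From cell to cell, Tat and Hpd had the highest median ratios of variance to mean. After each cell was thinned to 1000 UMIs, the variance of Tat UMIs over their mean was 1.08 to 1.36 between libraries, with a median of 1.12, where random draws from equal cells give a value near 1. That of Hpd was 1.05 to 1.21, with a median of 1.14, and the ranges of the 2 overlap. The median was at most 1.03 for the other 5, of which Fah reached 1.21 in ZT12A. This ratio can grow with the mean, which was 1.39 UMIs per cell for Tat, 0.804 for Hpd and 0.261 for Fah in the median library after thinning, so it does not rank the enzymes at an equal level. Within zones it was 1.10 for both Tat and Hpd. Cells of a library are not replicates, and these values describe the libraries.

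The enzymes did not move as a block across the 30 sums (10 libraries by 3 zones), which share libraries and depth. Hpd went with Gstz1 (Pearson r = 0.837, log2 CPM), Fah (0.708) and Hgd (0.664). Tat and Pcbd1 were opposed (-0.606), and Tat and Hpd had -0.343. Pcbd1 and Qdpr, the 2 enzymes of cofactor recycling, had 0.264. The genes whose pattern over these sums was most like that of each enzyme, among 4313 genes, were Mgat2 (0.839) and Gopc for Tat, and Gm17634 (0.897), Aldh2 and Arf5 for Hpd. They were Ndufa10 (0.815) and Nsa2 for Hgd, Acads (0.907), Lrpprc and Pank1 for Gstz1, and Akr7a5 (0.851), Prodh2 and Grhpr for Fah. For Pcbd1 they were Ppdpf (0.784), Gm2788 and Cela1, and for Qdpr Acss2 (0.782) and Acacb.

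The genes of BH4 supply and its partners (6 genes, all tested) held 3 pericentral and 0 periportal calls, with a list median of -0.13. Over all 8907 genes, 24.6% were called, 1134 of 2194 of them pericentral, and the median was -0.01. Gchfr, the feedback regulator of the first enzyme of BH4 synthesis, was lower in the periportal zone (-0.36, SE 0.07; edgeR, adjusted p = 9.1e-05), in 10 of 10 libraries. So was Dnajc12, a co-chaperone (-0.59, SE 0.15, adjusted p = 0.00318), in 10 of 10 libraries. Gch1, that first enzyme, had -0.23 (SE 0.08, adjusted p = 0.0246), and this call was lost under 8 of 22 alternatives, DESeq2 included. Pts, Spr and Pcbd2 lay between -0.04 and 0.09. In time, edgeR's main fits called only Gch1 of the 6 genes. Of 8908 genes they called 5.14% (rhythm), 3.79% (ZT18 against ZT6) and 3.44% (ZT12 against ZT0). The group means of Gch1 were 87.1 CPM (ZT0), 185 CPM (ZT6), 177 CPM (ZT12) and 55.1 CPM (ZT18), with an amplitude of 0.94 (edgeR, adjusted p = 0.00543). It fell by 1.67 from ZT6 to ZT18 (SE 0.28, adjusted p = 0.00542), a call lost without ZT6A or without ZT18B, and the rhythm was not called without both ZT18 libraries. Between ZT12 and ZT0 it had 0.89 (SE 0.22, adjusted p = 0.0389), a call lost under 11 of 24 alternatives. Pcbd2 had -1.55 from ZT6 to ZT18 (edgeR, adjusted p = 0.0796), which was called under 4 of 18 alternatives, DESeq2 included. Its rhythm was called under 3 of 20 alternatives.

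The genes of neighbouring steps and of the fate of the end products (17 genes, 14 tested; Il4i1, Hpdl and Oxct1 were under the minimum) held 3 periportal and 3 pericentral calls. These made up 42.9% of the 14, against 24.6% of 8907 genes. Got1, an aminotransferase that can also act on tyrosine, was higher in the periportal zone by 1.05 (SE 0.08; edgeR, adjusted p = 2.8e-12), the same side as Tat. Maob had 0.56 (SE 0.07) and Fh1, which takes up fumarate, 0.44 (SE 0.09). Bdh1, of ketone body metabolism, and Acat1 and Acat2, which handle acetoacetyl-CoA, were higher in the pericentral zone, with -0.58 (SE 0.07), -0.54 (SE 0.06) and -0.30 (SE 0.09). The call of Acat2 was lost without ZT0C. Got1 and Ddc, 2 of 14, differed between ZT12 and ZT0, a comparison that called 3.44% of 8908 genes. Got1 rose by 1.02 (SE 0.26; edgeR, adjusted p = 0.0474), a call lost under 8 of 24 alternatives, and Ddc fell by 1.61 (SE 0.29, adjusted p = 0.00659). Ddc, which decarboxylates aromatic amino acids, also had a 24-h rhythm (amplitude 0.90; edgeR, adjusted p = 0.00888). It was 1 of 14 so called, against 5.14% of 8908 genes. DESeq2 called 3 genes of this list for the rhythm, of 792 genes called in all: Ddc, Got1 and Fahd1.

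Of 8 genes of amino acid transport, 4 were tested, and Slc7a5, Slc7a8, Slc43a2 and Slc7a7 were under the minimum. Of the 4 tested, 2 were called by zone, against 24.6% of 8907 genes. Slc16a10, a carrier of aromatic amino acids, was lower in the periportal zone by -1.48 (SE 0.13; edgeR, adjusted p = 3.78e-11), the largest zone difference of any gene in these 4 pathway lists except Ppargc1a. Slc38a4, a carrier of neutral and cationic amino acids, was higher there by 0.39 (SE 0.07, adjusted p = 3.19e-05). None of the 4 was called by time (edgeR and DESeq2).

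Of 12 regulators known for these genes, 25.0% were called by zone, near the 24.6% of 8907 genes (edgeR). In the periportal zone 2 were higher and 1 was lower. These were Ppargc1a, a coactivator of fasting genes, by 1.73 (SE 0.16, adjusted p = 8.93e-11), Hnf4a by 0.17 (SE 0.06, adjusted p = 0.0467) and Cebpb by -0.72 (SE 0.07, adjusted p = 1.2e-09; edgeR). The call of Hnf4a held in 8 of 22 alternatives only, and scaling by the total gave 0.07 (adjusted p = 0.457). Ppargc1a was also called by time, with group means of 9.56 (ZT0), 20.8 (ZT6), 24.7 (ZT12) and 12.6 CPM (ZT18) and a rise of 1.22 from ZT0 to ZT12 (SE 0.22, adjusted p = 0.00612), a call lost in the paired fit without the C pair. Foxa3, a forkhead factor of hepatocytes, differed among times (range of time means 1.01; edgeR, adjusted p = 0.0397), a call held in 12 of 19 alternatives. Of the 12 regulators, 2 were called for any difference among times and 1 between ZT12 and ZT0, against 6.58% and 3.44% of 8908 genes. Nr3c1, the glucocorticoid receptor, and Gcgr, the glucagon receptor, had zone differences of 0.15 and 0.07 that missed the threshold.

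Other amino acid pathways give a scale for the zone values, beside the 24.6% of all genes called in this test. In tryptophan breakdown, 6 of 9 genes were called, 5 periportal and 1 pericentral, with a median difference of 0.34, and Tdo2, its first enzyme, had 0.44 (SE 0.06). In histidine and serine breakdown, 5 of 7 were called, all periportal, with a median of 1.48, and in the urea cycle 3 of 4, all periportal, with a median of 0.57. The phenylalanine and tyrosine enzymes had 3 of 7 calls, in both directions, and a median of -0.05. Hal, Ftcd, Ass1 and Asl of these pathways served as landmarks and were left out. The difference between the lists was not tested.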

How the data were processed

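The authors deposited UMI counts per gene and cell for each library. The values are whole numbers with totals that differ between cells, so they were read as raw counts. Per the submitters' processing notes, Cell Ranger was used, and mm10 and hg19 are named without a role; version, annotation and cell filters are not given in the sources used here. Cells held 1048 to 10001 UMIs and all were kept. No doublet caller was run, and the omission of the top 5% of cells by UMIs was an alternative. Coordinates are GENCODE M21 by symbol (14321 of 14812 entries matched), promoters RefSeq (GRCm38.p6).

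UMIs were summed per library, or per library and zone, and tested with edgeR 4.0.16 (R 4.3.3; TMM, quasi-likelihood, Benjamini-Hochberg over the genes whose mean reached 3 CPM, threshold 0.05). The rhythm test fits a cosine and a sine of 24 h to 4 times, 6 h apart, and all libraries enter each time fit. Zones came from the mean z-score of periportal landmarks (Asl, Ass1, Ctsc, Cyp2f2, Ftcd, Hal, Hsd17b13, Pigr) less that of pericentral ones (Aldh1a1, Cyp1a2, Cyp2e1, Gulo, Lect2, Mgst1, Oat, Rgn). Scores from odd and even landmarks correlated with r of 0.683 to 0.847 across cells. Landmarks were left out of counts of zone calls. DESeq2 1.42.0, other scalings and filters, and the omission of libraries were alternatives. The fits were also run on simulated counts with 1 spread for all genes and no effects of library or pair. These runs cannot show how the fits behave where such effects are present. Total counts were 1454623 to 7144803 per library; replicates were no copies (chi-square per degree of freedom 5.30 to 63.6). Values per zone and library are on the log2(CPM + 1) scale, which understates changes of low genes.

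Deviations from the group mean correlated between ZT0 and ZT12 libraries of the same letter with r of 0.239 (A), 0.42 (B) and 0.473 (C), and the letters share a number (column) in the index name in the labels; they were taken as pairs. Between ZT6 and ZT18 this r was 0.026. The genes named are 7 enzymes, the members of the lists that passed a test, and, of the 3 most alike genes of at least 20 CPM for each enzyme, those with a gene symbol. A few genes of the pathway and lists are not reported here. The enzymes and lists were chosen with earlier results of these data known.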

Additional observations from a re-analysis of the deposited data

Results flagged for a closer look

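In ZT12B, the zone difference of Hpd was -0.98 (log2, periportal minus pericentral), and its gap to the next library was 0.47 of the whole range; without ZT12B the fitted difference was -0.52, against -0.55 with it. The 7 enzymes were looked at for such libraries, and chance marks about 1 in 20 groups.

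In CPM scaled by the total of each zone, Qdpr was higher in the periportal zone in every ZT0 library. In the ZT18 libraries it was slightly lower there, by -0.02 (A) and -0.05 (B). The mean zone differences of 0.20 and -0.04 differ by 0.23, and this was not tested for the pair of times. Over all libraries the fitted zone difference was 0.05 on that scaling and 0.15 in the main test. The side of Qdpr at ZT18 can therefore depend on the scaling. The test for a 24-h wave of the zone difference gave an adjusted p of 0.914 for Qdpr (edgeR).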

How the results depend on the processing

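The zone calls of Tat, Hpd and Pcbd1 kept their direction and side of the threshold under all alternatives, and no call on an enzyme was lost under any. In the middle zone DESeq2 called 1 enzyme. Counts of all genes moved more, and the cause was not tested. No filter on low counts gave 710 genes for the rhythm, 1071 for any time, 469 for ZT12 against ZT0, 595 for ZT18 against ZT6, 127 for the middle zone and 42 for zone by time. A minimum of 20 CPM gave 283, 380 and 199 for rhythm, any time and ZT18 against ZT6, and 0 for zone by time. DESeq2 gave 792 for the rhythm, 31 for the middle zone and 0 for zone by time. Without both ZT18 libraries the rhythm and any time gave 231 each, and zone by time 1. A replicate block by letter gave 749 for the rhythm, 989 for any time, 504 for ZT12 against ZT0 and 32 for zone by time. It gave 730 for ZT18 against ZT6 with 1 enzyme, Tat (1.18, adjusted p = 0.0384, edgeR), but the letters share only a name there. The index column as a block gave 767 and 2 enzymes for ZT12 against ZT0; it could not be fitted for any time and ZT18 against ZT6. Paired fits of ZT0 and ZT12 alone, without the A, B or C pair, gave 627, 576 and 145 genes, with 1 enzyme without A. The middle zone gave 37 and 27 with odd and even landmarks. Zone by time gave 5 with the library total or narrower outer zones, 6 without mitochondrial genes or with cells of at least 2000 UMIs, and 1 with odd landmarks. Leaving out 1 library gave 228 to 465 genes for the rhythm, 245 to 669 for any time, 214 to 314 for ZT12 against ZT0, 50 to 494 for ZT18 against ZT6 (50 to 80 without any 1 of the ZT6 or ZT18 libraries), 30 to 97 for the middle zone and 0 to 37 for zone by time.

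Of 1029 enzyme values under alternatives, 33 changed direction, none of them a call. The fitted wave turned for Gstz1 (amplitude 0.054 without ZT18, 0.069 with the index column) and, without 1 library, Hgd (0.036 to 0.12). For ZT12 against ZT0, Hpd became 0.10 with the library total and 0.019 without the B pair (-0.29 to 0.13 without 1 library). Hgd became -0.023 without the deepest cells, -0.015 with the letter block and with the index column, -0.019 with the pairs alone and -0.18 without the C pair (-0.25 to 0.14). Fah became 0.067 with the library total and 0.056 without the A pair (-0.25 to 0.086), and Gstz1 ran from -0.019 to 0.14 without 1 library. For ZT18 against ZT6, Pcbd1 became -0.040 (-0.12 to 0.18) and Qdpr -0.042 (-0.092 to 0.16) with the library total, and Hgd ran from -0.30 to 0.092. By zone, Fah became -0.039 with the library total. In the middle zone Hgd became -0.0070 and -0.0064 with odd and even landmarks, Gstz1 -0.020 in the deeper cells, and Fah 0.022 without the deepest cells and 0.014 without ZT18 (-0.037 to 0.018). The zone wave turned, without 1 library, for Fah (0.041 to 0.12) and Pcbd1 (0.019 to 0.10). With 2 or 3 libraries a time, differences over time had wide intervals.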
